A study of Mus musculus with 8 samples.

Results

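Mature fat cells store energy as triglyceride, and 10 genes of that storage machinery were followed here in C3H10T1/2 cells: Fabp4, Fabp5, Adipoq, Lipe, Agpat2, Dgat1, Dgat2, Fasn, Scd1 and Slc2a4. They were chosen by name, and every probe set whose single gene symbol was one of these was kept, whatever its signal. A probe set is the group of short probes on the array that together give 1 signal for 1 transcript. Of the 10 genes 9 had a probe set, 16 probe sets in all among 22690 on the array, and no probe set carried Agpat2.

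Fat storage runs in steps. Glucose enters through transporters, of which the one encoded by Slc2a4 answers to insulin, and fatty acid synthase and stearoyl-CoA desaturase build and desaturate fatty acids from it. Binding proteins carry fatty acids through the cell, acyltransferases join them to glycerol, and lipases release them again. Adiponectin, the product of Adipoq, is a hormone secreted by mature fat cells, and its gene and Fabp4 are common markers of finished fat cell formation.

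C3H10T1/2 is a multipotent mouse mesenchymal line derived from embryos, which can form fat, cartilage, bone and muscle cells under suitable inducers. BMP7 is a secreted bone morphogenetic protein. Total RNA came from cells grown to confluence on dishes, in 4 samples exposed to vehicle and 4 to BMP7 at 3.3 nM, each for 3 days. The labels do not say whether each sample was a culture of its own, and they name no other agent in either group. The samples are called Vehicle 1 to 4 and BMP7 1 to 4 by the numbers in their titles.

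Each array gave a MAS5 signal per probe set, a linear intensity scaled by the authors so that the arrays had the same trimmed mean, between 1500.4 and 1500.7. Levels of different probe sets are not compared, since probes differ in their response. Pairs of vehicle arrays correlated at 0.855 to 0.944 across tested probe sets, and pairs of BMP7 arrays at 0.947 to 0.966. Vehicle 3 had an Actb 3'/5' ratio of 6.55, against 1.17 to 1.40 elsewhere; this ratio compares control probes at both ends of the transcript and is higher where RNA is degraded. Bacterial control transcripts spiked in before hybridisation averaged 13.03 (log2 signal) on Vehicle 3, 11.66 to 12.33 on the remaining vehicle arrays and 11.42 to 11.69 in the BMP7 group. Vehicle 4, at 11.66, was the only vehicle array within the BMP7 range. All 8 markers listed for mesenchymal cells were above the signal filter in these RNAs, with summed signals of 259814 to 388726 in vehicle and 196801 to 234681 in BMP7 arrays. Of these 2 fell, where 204 of all 13576 tested probe sets fell and 3.13% were called in either direction. They were the fibrillar collagen gene Col3a1 (log2 fold change -0.85, adjusted p 0.0268 in limma, 0.0696 with no filter) and the growth factor receptor gene Pdgfra (-1.28, adjusted p 0.0176, 0.0199 with no filter). Col1a1, Col1a2, Pdgfrb and S100a4 were also lower on every BMP7 array than on any vehicle array, without passing (adjusted p 0.0583 to 0.217). Groups did not overlap for 15.4% of all tested probe sets.

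The comparison of BMP7 with vehicle asks whether the storage genes differ after 3 days. No probe set of the 9 genes passed the test over all probe sets. Fabp5 and Scd1 came nearest, each with higher signals on all 4 BMP7 arrays than on any vehicle array, by 1.45-fold and 2.51-fold on the Fabp5 probe sets and by 1.66-fold and 1.92-fold on those of Scd1. Fasn, Dgat1, Dgat2 and Lipe passed the filter on low signals, and their groups overlapped. All probe sets of Fabp4, Adipoq and Slc2a4 fell short of that filter in their mean over the 8 arrays. In RNA from whole dishes, fewer cells of a type and less RNA per cell cannot be told apart.

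Only probe sets with a mean log2(signal + 16) over all 8 arrays that reached the 40th percentile of the array, a signal of about 325, were tested. That left 9 of the 16 probe sets, covering 6 genes, among 13576 tested. Of these 9 none was called in either direction at an adjusted p under 0.05 in limma, where 3.13% of all tested probe sets were called. At an unadjusted p under 0.05 there were 4 of 9, all higher, against 21.8% of all tested probe sets (12.5% higher). The same 4 had groups that did not overlap, against 15.4% (8.30% higher). They were both Fabp5 and both Scd1 probe sets and so stood for 2 genes. In the fit with no filter none of the 7 probe sets below it was called and all 7 had overlapping groups, where 1.54% of all probe sets were called and 11.5% did not overlap. The 11.5% includes the tested probe sets with their 15.4%, so the share among probe sets below the filter is lower. The median log2 fold change of the 9 was 0.39, and that of all tested probe sets 0.04.

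Fabp5 encodes a fatty acid-binding protein of skin and many other tissues, including fat, and lies on chromosome 3, as does Fabp4. On probe set 1416022_at its signal was 2643.6, 2130.7, 867.2 and 2695 on Vehicle 1 to 4, and 6553.6, 3843.2, 4222.1 and 5039.8 on BMP7 1 to 4. Vehicle 3, the array with the high 3'/5' ratio, was the lowest of the 8, and the lowest BMP7 array still exceeded the highest vehicle array. The means were 2084 ± 850.3 and 4915 ± 1201 (SD, n = 4 each). The log2 fold change was 1.33 ± 0.34 (SE), a 2.51-fold difference with a 95% interval of 1.49 to 4.23, and it did not pass (adjusted p 0.0598 in limma).

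The second Fabp5 probe set, 1416021_a_at, gave 5304.7, 7675.1, 7543 and 6172.5 in vehicle and 10788.8, 8839, 8872.4 and 9807.2 in BMP7 cells. Here Vehicle 3 was not low, and the groups were again apart. The means were 6674 ± 1138 and 9577 ± 924 (n = 4 each), 1.45-fold with a 95% interval of 1.10 to 1.89 (adjusted p 0.119 in limma). Across the 8 arrays the log2 signals of the 2 probe sets had a Pearson r of 0.55, given as a description of arrays that share scaling and groups.

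Whether 1416022_at passed depended on the fit. It passed without Vehicle 3 (log2 fold change 0.95, adjusted p 0.0251) and without Vehicle 4 (1.49, adjusted p 0.0343). It also passed in limma fits with array weights, quantile normalization or a covariate for the 3'/5' ratio (adjusted p 0.0150, 0.0466 and 0.0352). There its log2 fold change was 0.93, 1.29 and 0.90, against 1.33 in the reported fit. Without Vehicle 1 or 2, or without any single BMP7 array, the probe set did not pass (adjusted p 0.0878 to 0.167 in limma). Adjusted for the spiked hybridisation controls, its log2 fold change was 0.46 (adjusted p 0.652). For 1416021_a_at only array weights gave a pass among the fits run (adjusted p 0.0115). Its log2 fold change of 0.53 became 0.61 adjusted for the 3'/5' ratio and 0.73 for the hybridisation controls (adjusted p 0.0569 and 0.258). The signal of 1416022_at followed most closely, among other tested genes, that of the tubulin gene Tubb4b (r = 0.990 over the 8 arrays), the thioredoxin-related membrane protein gene Tmx2 (r = 0.987) and the RNA-binding protein gene Hnrnpab (r = 0.978). These r were picked as the highest of all tested genes, over arrays that share scaling and groups, and are given only as a description. Tubb4b had 6513 ± 1961 in vehicle and 10610.1 ± 1217 in BMP7 cells.

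Fabp4 encodes the fatty acid-binding protein typical of fat cells, also made by macrophages and some endothelium. Its 4 probe sets all lay below the filter, so none was tested with it. The probe set 1417023_a_at gave 176.8, 784.3, 31.4 and 18.5 on Vehicle 1 to 4 and 541, 231, 317.2 and 226.1 on BMP7 1 to 4. The vehicle arrays thus ranged from the lowest to the highest of the 8, and the BMP7 arrays lay between, at 253 ± 362 against 329 ± 148. On 1451263_a_at the signals were 81, 269.5, 126.7 and 111.6 in vehicle and 596.7, 284.3, 257.4 and 130.9 in BMP7 cells, with means of 147 ± 83.7 and 317 ± 198. BMP7 1 was the highest array there, BMP7 3 and 4 lay within the vehicle range, and the groups overlapped.

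On the Fabp4 probe set 1425809_at the vehicle arrays spanned 50.6 to 218.2 and the BMP7 arrays 81.5 to 270.2. On 1424155_at they spanned 12 to 31.6 and 8.3 to 143.2. In a limma fit of all 22626 probe sets with no filter, the 4 log2 fold changes were between 0.39 and 1.36, with adjusted p between 0.363 and 0.760. The widest interval was that of 1417023_a_at, from 0.706-fold to 9.39-fold. Its log2 fold change was 2.25 without Vehicle 2 and 0.74 without Vehicle 4, and that of 1424155_at was -0.16 without BMP7 1. No Fabp4 probe set passed when any 1 array was left out of the fit with no filter (lowest adjusted p 0.135 in limma).

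**Figure D1:**
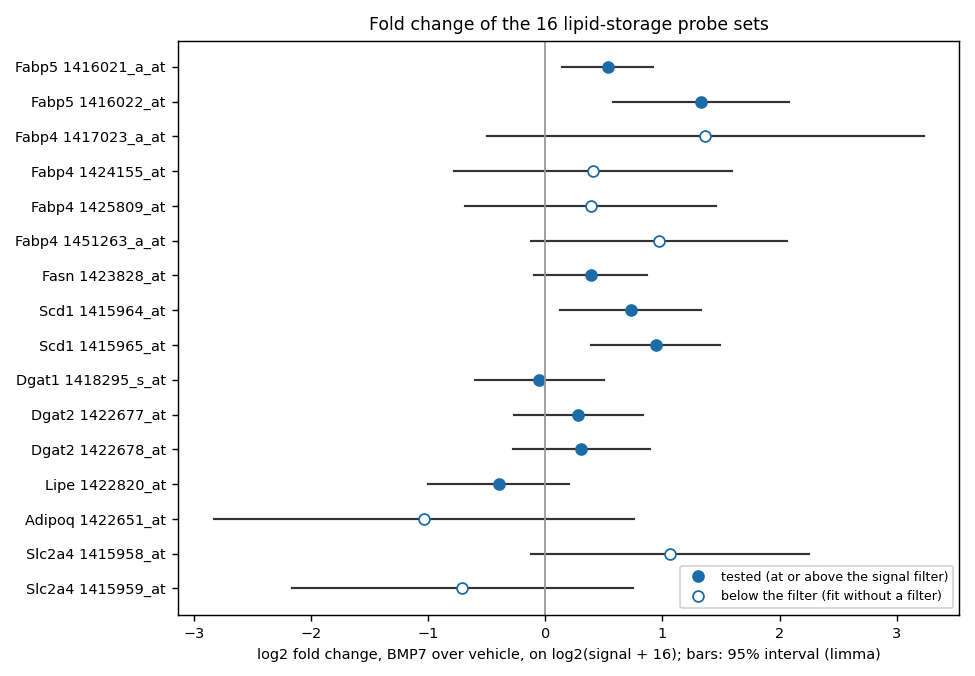
Log2 fold change of BMP7 over vehicle for each of the 16 probe sets on the log2(signal + 16) scale, with 95% intervals from limma (n = 4 arrays per group). Filled points passed the filter and open points come from the fit with no filter. The intervals of both Fabp5 and both Scd1 probe sets lie above 0, and those of the other 12 include 0.

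Fasn and Scd1 stand for new fatty acid synthesis. Fasn, fatty acid synthase, on chromosome 11, gave 5726.9, 5682.3, 10364 and 7407.1 on Vehicle 1 to 4 and 7801.7, 9066.5, 11074.3 and 9377.4 on BMP7 1 to 4. Vehicle 3 was higher than all BMP7 arrays but one, and the other vehicle arrays were below every BMP7 array. The means were 7295 ± 2198 and 9330.0 ± 1348 (n = 4 each), 1.31-fold with a 95% interval of 0.937 to 1.83 (adjusted p 0.324 in limma). Array weights gave a log2 fold change of 0.60 (adjusted p 0.0285), and without Vehicle 3 it was 0.57, against 0.39 with all arrays. It was 0.59 adjusted for the 3'/5' ratio and 0.70 for the hybridisation controls (adjusted p 0.0775 and 0.387).

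Scd1, the desaturase that makes oleate and palmitoleate, lies on chromosome 19. Its probe set 1415965_at gave 1477.1, 1079.6, 838.4 and 1808.2 in vehicle and 2816.7, 2506.4, 1954.4 and 2445.2 in BMP7 cells. The groups did not overlap, though Vehicle 4 and BMP7 3 lay close together. The means were 1301 ± 429 and 2431 ± 357 (n = 4 each), 1.92-fold with a 95% interval of 1.31 to 2.81 (adjusted p 0.0677 in limma). The probe set passed without Vehicle 4 (log2 fold change 1.12, against 0.94 with all arrays, adjusted p 0.0247) and with array weights (0.70, adjusted p 0.0310).

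The second Scd1 probe set, 1415964_at, gave 6054.6, 5838.7, 2445.6 and 5071.3 in vehicle and 8961.3, 7746, 7304.4 and 6554 in BMP7 cells. Vehicle 3 was by far the lowest array, and the other vehicle arrays were also below every BMP7 array, with Vehicle 1 the closest to them. The means were 4853 ± 1659 and 7641 ± 1008 (n = 4 each), 1.66-fold with a 95% interval of 1.09 to 2.52 (adjusted p 0.159 in limma). Without Vehicle 3 the log2 fold change was 0.43, against 0.73 with all arrays (adjusted p 0.113). Adjusted for the spiked hybridisation controls, it was 0.10 on this probe set and 0.34 on 1415965_at (adjusted p 0.918 and 0.664). Adjusted for the 3'/5' ratio, these values were 0.39 and 0.71 (adjusted p 0.178 and 0.0796). The 2 covariates thus lowered the fitted difference on both Scd1 probe sets and on Fabp5 1416022_at, and raised it on Fabp5 1416021_a_at and Fasn. The 3'/5' ratio mainly sets Vehicle 3 apart from the other arrays. The hybridisation controls differed between the groups, with only Vehicle 4 of the vehicle arrays in the BMP7 range. Their effect and that of BMP7 cannot be told apart.

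**Figure D2:**
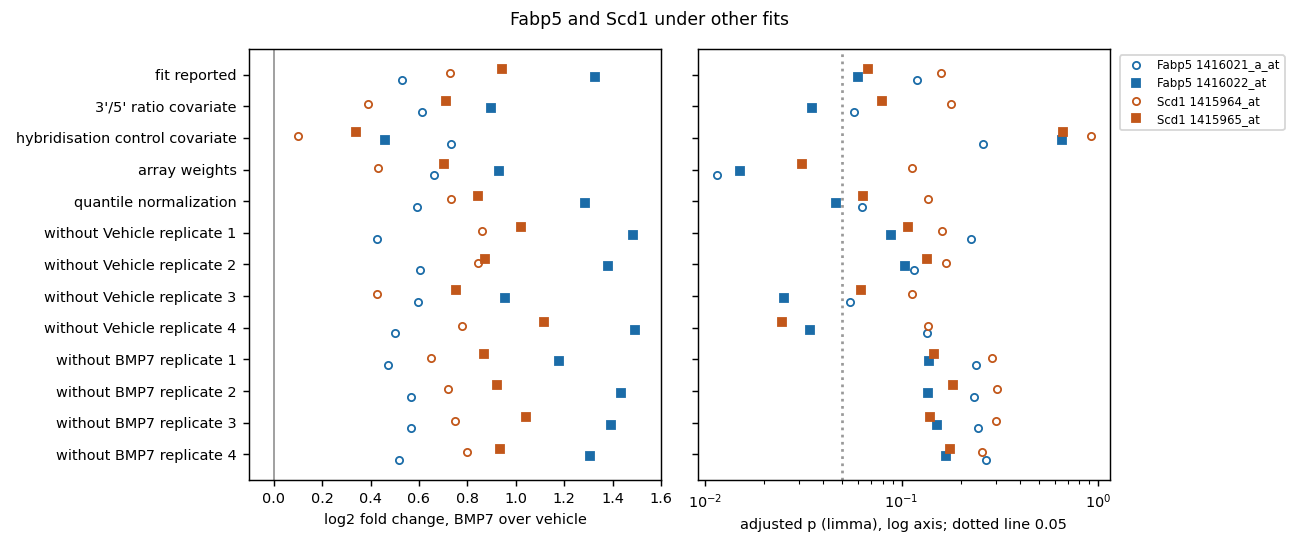
Log2 fold change of BMP7 over vehicle (left) and adjusted p on a log axis (right) for the Fabp5 (blue) and Scd1 (orange) probe sets, in the reported limma fit and in others. Circles are 1416021_a_at and 1415964_at, and squares 1416022_at and 1415965_at. All log2 fold changes shown are above 0, from 0.10 to 1.49, and the points left of the dotted line at 0.05 belong to Fabp5 and to Scd1 1415965_at.

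Dgat1 and Dgat2 encode unrelated enzymes for the last step of triglyceride synthesis. Dgat1, on chromosome 15, gave 1563.1, 911.6, 2024.1 and 1664.9 on Vehicle 1 to 4 and 1733.7, 1327, 1310 and 1386.1 on BMP7 1 to 4, and the vehicle arrays spanned the BMP7 arrays. The means were 1541 ± 464 and 1439 ± 199 (n = 4 each), 0.966-fold with a 95% interval of 0.660 to 1.41 (adjusted p 0.928 in limma). The Dgat1 probe set, 1418295_s_at, is of a type that can bind related transcripts, and its direction turned without Vehicle 3 or Vehicle 4. Dgat2, on chromosome 7, gave 1165.7, 614.5, 1284.3 and 1258.1 against 1097.1, 1409.1, 1280.3 and 1299.8 on 1422677_at.

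Vehicle 2 was the lone low array on that Dgat2 probe set, and without it the log2 fold change was 0.04, against 0.28 with all arrays. The means were 1081 ± 315 and 1272 ± 129 on 1422677_at and 821 ± 198 and 1034 ± 304 on 1422678_at (n = 4 each). The fold changes were 1.22 and 1.24, with 95% intervals on the log2 scale of -0.27 to 0.84 and -0.27 to 0.89 (adjusted p 0.530 and 0.516 in limma). On 1422678_at the signals were 833.2, 765.6, 1081.4 and 605.1 in vehicle and 844.4, 1298.8, 1285.5 and 706.7 in BMP7 cells, with both groups spread over much the same range. The log2 fold change there, 0.31 with no covariate, was 0.47 adjusted for the 3'/5' ratio and 0.64 for the hybridisation controls (adjusted p 0.307 and 0.546).

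Lipe, hormone-sensitive lipase, which releases fatty acids from stored fat, was the only tested member besides Dgat1 with a lower mean in BMP7 cells. Its signal was 555.1, 323.5, 627.9 and 594.9 on Vehicle 1 to 4 and 373.9, 470.5, 386.4 and 315.3 on BMP7 1 to 4. Vehicle 2 lay among the BMP7 arrays and the other vehicle arrays above them. The means were 525 ± 138 and 387 ± 63.99 (n = 4 each), 0.759-fold with a 95% interval of 0.499 to 1.15 (adjusted p 0.419 in limma). The log2 fold change was between -0.61 and -0.30 in every fit run, and none of them passed.

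Adipoq gave 152.5, 200.3, 292 and 9.2 on Vehicle 1 to 4 and 100.8, 134, 11.7 and 17 on BMP7 1 to 4. All 8 values lay under the filter's signal, each group held both very low and somewhat higher arrays, and the groups overlapped at 164 ± 118 and 65.9 ± 61.1. With no filter the log2 fold change was -1.04 (adjusted p 0.567 in limma), with an interval from 0.141-fold to 1.69-fold, and it was -1.82 without Vehicle 4 and -0.62 without Vehicle 3.

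Slc2a4, on chromosome 11, encodes the insulin-responsive glucose transporter of fat and muscle. On 1415958_at it gave 381.7, 85.8, 67.7 and 347.2 in vehicle and 269.2, 507.6, 423.5 and 343.2 in BMP7 cells. Vehicle 2 and 3 were low, while Vehicle 1 and 4 lay within the BMP7 range. On 1415959_at it gave 29.9, 19, 300.5 and 71.4 against 14.5, 79.8, 39.2 and 22.5, with Vehicle 3 far above the other 7 arrays. With no filter the log2 fold changes were 1.06 and -0.71, opposite in sign (adjusted p 0.356 and 0.637 in limma), and the second was -0.06 without Vehicle 3. The 2 probe sets had a Pearson r of -0.35 over the 8 arrays, so they gave no common direction for the gene.

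The coefficient of variation was lower among BMP7 than among vehicle arrays for 8 of the 9 tested member probe sets, as it was for 10592 of all 13576 tested. The exception was Dgat2 1422678_at, with 24.1% in vehicle and 29.4% in BMP7 arrays. In the authors' deposited table, whose p-value is unadjusted, 4 of the 16 member probe sets had p under 0.05, against 11.8% of all probe sets. They were again those of Fabp5 (BMP7 to control ratios of 1.43 and 2.36, p 0.00809 and 0.0104, in the authors' deposited table) and Scd1 (ratios of 1.57 and 1.87, p 0.0353 and 0.00718, in the authors' deposited table).

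Of 10 other markers of mature fat cells, 9 had a probe set, 7 of these lay below the filter and none was called. The hormone gene Lep had 28.3 ± 14.0 in vehicle and 33.1 ± 13.4 in BMP7 cells, and Cfd, the secreted protease adipsin, 92.7 ± 67.1 and 192 ± 84.3. Lower means in BMP7 cells were those of Cidec (76.8 ± 41.5 against 32.35 ± 15.0), Pck1 (179 ± 49.2 against 116 ± 43.4), Lpl and Aoc3. Those of Lep, Cfd, Retn, Cd36 and Aqp7 were higher. Aqp7 had 42.4 ± 21.3 and 106 ± 151, with BMP7 2 at 330.9. The groups of all 9 markers overlapped. The 2 above the filter were Retn, resistin, at 580.1 ± 187 and 691 ± 79.3 (adjusted p 0.538 in limma), and the amine oxidase gene Aoc3 at 2523 ± 1320.2 and 939.8 ± 729 (adjusted p 0.126). The summed signal of the 9 ranged from 2254 to 5878 in vehicle and from 1656 to 3438 in BMP7 arrays, and Aoc3 alone gave 958.4 to 3934.2 and 458.7 to 2009.2 of it.

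Markers of other cells that can express Fabp4, Fabp5 or Slc2a4 did not move with the groups in any call. Among macrophage markers 4 of 8 were above the filter, among endothelial markers 1 of 6, among epithelial markers 1 of 6 and among muscle markers 2 of 6, and none passed the test. Their summed signals were 3202 to 4401 in vehicle and 3034 to 4302 in BMP7 arrays for macrophages, and 764 to 1351 and 953 to 1246 for epithelium. For endothelium they were 1056 to 1184 and 751 to 1710, and for muscle 1229 to 1849 and 1283 to 2460. Their part in the members' values was not tested.

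The rest of the fat-storage pathway was read from 8 lists of 92 genes, of which 83 had a probe set and 51 were tested. Of the 51, 1 rose, Irs1, and none fell, 1.96% against 3.30% of all tested genes with 1 probe set each. At an unadjusted p under 0.05 there were 14 of 51, 27.5% against 21.0%, and 9 of 51 had groups that did not overlap, 17.6% against 15.2%. The log2 fold change was positive for 34 of the 51, with a median of 0.25, and for 4230 of all 8374 tested genes.

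Irs1, the docking protein below the insulin receptor, had 6608 ± 1520.2 in vehicle and 11508 ± 1151 in BMP7 cells (n = 4 each), 1.77-fold (adjusted p 0.0458 in limma). It was the gene called among 8 tested in glucose uptake and insulin response. The call was lost without Vehicle 1 or when any single BMP7 array was dropped (adjusted p up to 0.168), with no filter, with median centring, without an intensity trend and on adjusting for the hybridisation controls (adjusted p 0.0590, 0.0717, 0.0653 and 0.395), and in the unequal-variance test (adjusted p 0.167). In these fits its log2 fold change was 0.63 to 0.86, against 0.82. In the same list Slc2a1, the basal glucose transporter, had 3202 ± 270.3 and 3234 ± 789 (adjusted p 0.980).

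None of 5 tested genes of fatty acid uptake and activation was called by limma (1 at an unadjusted p under 0.05, median log2 fold change 0.07). The lipoprotein lipase gene Lpl, at 398 ± 363 and 234 ± 124, and the fatty acid transporter gene Cd36, at 64.4 ± 35.1 and 69.6 ± 59.6, were below the filter. The acyl-CoA synthetase gene Acsl5 had 3704 ± 409 and 3666 ± 153 (adjusted p 0.979). Of 10 tested genes of new fatty acid synthesis limma called none (4 at an unadjusted p under 0.05, median 0.30). Acaca, acetyl-CoA carboxylase, had 356 ± 346 and 726 ± 203 (adjusted p 0.146; 0.0105 without Vehicle 4, 0.0376 with array weights, and 0.785 adjusted for the hybridisation controls, with a log2 fold change of 0.51 against 1.33), and the desaturase gene Scd2 had 36882 ± 5415 and 32837 ± 2724 (adjusted p 0.560).

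Triglyceride assembly had 7 tested genes and none called in limma (2 at an unadjusted p under 0.05, in both directions, median 0.08). The 2 were 28.6%, against 21.0% of all tested genes. Gpam, which adds the first fatty acid to glycerol phosphate, had 3941 ± 1492 and 3246 ± 321 (adjusted p 0.625). The lipid droplet coat had 6 tested genes and none called (none at an unadjusted p under 0.05, median -0.05). Plin2, a droplet coat protein of many cell types, had 9562 ± 1649.6 and 8428 ± 454 (adjusted p 0.578), and the fat cell droplet proteins Cidea and Cidec were below the filter. Plin4 of the same list was above it, at 2070 ± 1138 and 1259 ± 351 with overlapping groups (adjusted p 0.330 in limma). Lipolysis had 2 tested genes, Pnpla2, adipose triglyceride lipase, at 896 ± 75.3 and 946 ± 143 (adjusted p 0.857), and its activator Abhd5 at 1151 ± 162 and 1404 ± 110.3 (adjusted p 0.376). The groups of Abhd5 did not overlap, though they nearly met, at up to 1311.8 in vehicle and from 1317.6 in BMP7 cells.

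Among adipokines and their receptors 5 genes were tested and limma called none (1 at an unadjusted p under 0.05, median 0.25). The adiponectin receptor gene Adipor1 had 6803 ± 759 and 6436 ± 301 (adjusted p 0.816). Of the 8 tested lipid transcription factors limma called none (3, or 37.5%, at an unadjusted p under 0.05, in both directions, median 0.21). Cebpa, a late driver of fat cell formation, had 1006 ± 224 against 1800.5 ± 365 with groups apart (adjusted p 0.0686 in limma). It passed in 3 of 21 fits, without Vehicle 3, with array weights and adjusted for the 3'/5' ratio (adjusted p 0.0280, 0.0129 and 0.0355). In the others its adjusted p was up to 0.327. Pparg, the central regulator of fat cell formation, had groups apart in the other direction (1078 ± 334 against 694 ± 63.4, log2 fold change -0.58, adjusted p 0.193). Of 20 fits Pparg passed only with array weights (adjusted p 0.0429), and its adjusted p was up to 0.542. Srebf1, a driver of Fasn and Scd1 in liver and fat, had 1638 ± 307 and 1582 ± 143 (adjusted p 0.935), and Cebpd, an early factor in fat cell formation, 5398 ± 1899 and 6134 ± 501 (adjusted p 0.589).

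**Figure D3:**
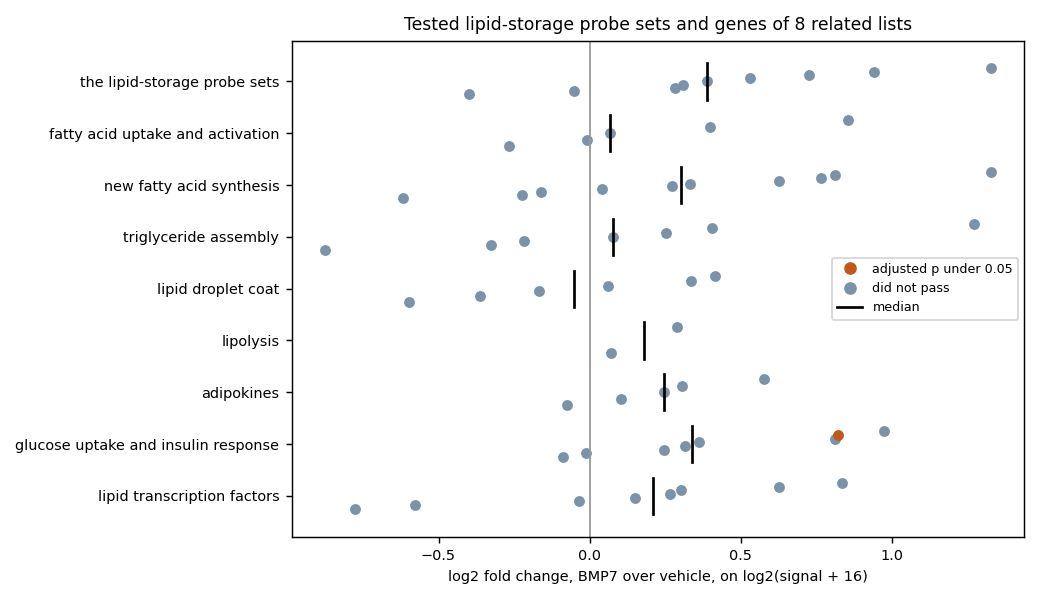
Log2 fold change of BMP7 over vehicle on the log2(signal + 16) scale for the 9 tested lipid-storage probe sets and for 51 tested genes of 8 related lists, 1 point each. Black bars are medians. The only point past the adjusted threshold is Irs1, in glucose uptake and insulin response.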

How the data were processed

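Total RNA of 8 samples was hybridised to 1 Affymetrix mouse array each. The deposited intensity values are linear MAS5 signals, per the submitters' processing notes, of a version not stated. Each column of the value table is named for its sample, which gives group and replicate number. The authors' deposited table also gives group means and SDs as intensity, a ratio of the means and a p-value. Recomputation showed this to be an unadjusted two-sided unequal-variance test on linear signals. Its signal columns under array codes, 8 in number, were not used. Its means equal those of the labelled columns.

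Values were analysed as log2(signal + 16), which understates folds of low signals. Groups were compared with limma 3.58.1 in R 4.3.3 (lmFit, eBayes with an intensity trend, two-sided, no covariate), adjusted by Benjamini-Hochberg over 13576 probe sets that passed the 40th percentile. Nothing in the labels says that the samples were separate cultures; p-values therefore reflect only the sample-to-sample spread, possibly technical, and 4 arrays per group limit the precision.

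Members and lists were chosen with earlier results of these data known. A companion gene is represented by its brightest tested probe set. Genes were named where they passed, had the highest mean of their list, or were among Pparg, Cebpa, Lpl, Cd36, Plin2, Pnpla2, Acaca, Srebf1 and Slc2a1. Of the cell type markers, Col3a1 and Pdgfra are named because they passed. Others of the marker lists, and Cidea, Cidec and Plin4, were chosen after their values were seen. Of the adipokine list, 1 gene was taken out of the lists and of every companion count after its value was seen, and is not reported here, so those counts do not cover the list as first written. Symbols were updated through RefSeq (GRCm38.p6), which held 20828 of 21453 single-gene identifiers. Alternatives were other pseudocounts, filters, scalings, variance models, array weights, covariates, a block, the t-test of the deposited p-value, and each array left out.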

Additional observations from a re-analysis of the deposited data

Results flagged for a closer look

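On the Dgat2 probe set 1422677_at, Vehicle 2 stood apart from the other vehicle arrays, at a signal of 614.5 against 1165.7 for the nearest of them. It was the only group of arrays so marked among 60 examined, and chance marks about 1 in 20 groups. These 60 cover the member probe sets and the tested companion genes named by the rules above. Cell type markers and genes chosen after their values were seen were not examined. The gap was 0.868 of the group's range on the log2(signal + 16) scale, above Dixon's 95% limit for 4 samples. The other Dgat2 probe set did not show it.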

How the results depend on the processing

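Over all probe sets 221 were higher and 204 lower in BMP7 cells. The counts were 1013 and 765 with array weights, 17 and 18 with a hybridisation control covariate, and 2 and 2 with the unequal-variance test on linear signals after adjustment. Leaving out 1 array gave 39 to 702 higher and 51 to 382 lower. No member probe set was higher in the reported fit; 1 was with quantile normalization, 1 with the 3'/5' covariate, 4 with array weights, and 0 to 2 when 1 array was left out. None was lower in any fit. Of the companion genes 1 was higher; 0 were with no filter, median centring, no intensity trend, the hybridisation covariate or the unequal-variance test, 2 with the 3'/5' covariate, 7 with array weights, and 0 to 3 when 1 array was left out. With array weights 4 were lower, against 0. The causes were not tested.

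The numbers in the titles were checked as pairs by the correlation of deviations from group means, which was 0.38, 0.04, 0.15 and 0.19 for the 4 same-numbered pairs. Since 1 pair was under 0.1 and the labels name no shared batch, the numbers were not taken as pairs, although 7 of the 8 arrays correlated best with their own number, a hint from the data and not the design. With a replicate block 374 probe sets were higher, against 221, 2 member probe sets were higher (Fabp5 1416022_at, adjusted p 0.0277, and Scd1 1415965_at, adjusted p 0.0401, in limma) and 0 companion genes (Irs1, adjusted p 0.0535).

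Directions that turned all belong to values that passed no fit. Dgat1 had a log2 fold change of 0.10 with the 3'/5' covariate, 0.074 with the hybridisation covariate and -0.28 to 0.10 when 1 array was left out. With the hybridisation covariate Plin2 had 0.048, Adipor1 0.058, Srebf1 0.15 and Gpam 0.39, and with the 3'/5' covariate Srebf1 had 0.071 and Gpam 0.056. Pnpla2 had -0.036 with quantile normalization and -0.019 with median centring, Scd2 had 0.19 with quantile normalization, Acsl5 0.023 with array weights and Slc2a1 0.015 in the unequal-variance test. When 1 array was left out, Pnpla2 ranged from -0.028 to 0.12, Slc2a1 from -0.16 to 0.086, Srebf1 from -0.12 to 0.063, Acsl5 from -0.054 to 0.064, Cebpd from -0.036 to 0.43 and Gpam from -0.36 to 0.017. With no filter Fabp4 1424155_at had -0.16 without BMP7 1, against 0.40. The pseudocounts of 1 and 64 and the filter at the 60th percentile changed no call of a member. Detection calls are not used here, so low signals are read only against the filter.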

Other observations

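A few genes of lipid handling had groups that did not overlap without passing the test, and were chosen after their values were seen. Groups did not overlap for 17.6% of the 51 tested companion genes, against 15.2% of all tested genes. Among them Fads1 and Pik3r1 changed little (log2 fold change -0.22 and 0.25, adjusted p 0.385 and 0.390 in limma). Acsl1, the main acyl-CoA synthetase of fat cells, had 1162 ± 393 in vehicle and 2045 ± 159 in BMP7 cells (n = 4 each, adjusted p 0.0677 in limma). Acss2, which makes acetyl-CoA from acetate, had 916 ± 124 and 1427 ± 243 (adjusted p 0.109). Lpin1, a phosphatidate phosphatase of triglyceride synthesis, had 1678 ± 309 and 948 ± 363 (adjusted p 0.111), below vehicle on all 4 BMP7 arrays. Mgll, the lipase that ends triglyceride breakdown, was under the filter at 217 ± 47.1 and 452 ± 176, above vehicle on all 4 BMP7 arrays (adjusted p 0.212 in limma with no filter).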
